A study of Mus musculus with 18 samples.

Results

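The 10 genes Ezr, Msn, Rdx, Vil1, Pls1, Espn, Eps8, Myo1a, Myo7b and Cdhr5 encode proteins that anchor, bundle and cap the actin filaments under the apical membrane of epithelial cells. They were chosen by name as apical actin and microvillus genes, with earlier results of these data known. All 10 were found among the 31201 gene names of the count tables. Cells came from untreated 10-week-old male wild-type C57BL/6J mice and were measured with Quartz-Seq2, a plate-based single-cell RNA-seq method that counts unique molecular identifiers (UMIs) from the 3′ side of polyadenylated RNA. Dataset 1 held corpus and antrum gastric units sorted without dead-cell dye signal, and dataset 2 held corpus gastric units sorted as Hoechst33342 positive and ToPro3 negative. Each dataset had 2 pools of cells, each from 3 mice and each made by a different operator. The pools are called tube1 and tube2 in dataset 1 and K and T in dataset 2. Because each pool mixes 3 mice, a spread over 2 pools does not show the spread between single animals.

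In gastric and intestinal epithelium, actin filaments fill short apical projections. Ezrin (Ezr), radixin (Rdx) and moesin (Msn) tie these filaments to the plasma membrane. Villin (Vil1), plastin 1 (Pls1, also called fimbrin) and espin (Espn) bundle the filaments, and EPS8 (Eps8) caps their tips. Myosin 1A (Myo1a) links the bundle to the membrane along its sides, and the cadherin CDHR5 (Cdhr5) with the motor myosin 7B (Myo7b) belongs to the adhesion complex that joins the tips of neighboring microvilli. Parietal cells, which secrete acid, line their secretory canaliculus with microvilli, pit cells carry short microvilli on the gastric surface, and enterocytes of the duodenum carry the dense brush border.

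The 491 cells of dataset 1 fell into 15 clusters and the 3993 cells of dataset 2 into 20 clusters, as the authors assigned them. Median depth was 38757 UMIs per cell in dataset 1 and 31020 in dataset 2. Every type had 2 sums of UMIs per dataset, 1 for each pool, and these sums were the units of all tests. In dataset 2 the sums held 53 to 718 cells and 2165683 to 29539575 UMIs. In dataset 1 they held 13 to 52 cells and 428287 to 2362300 UMIs. Levels are given as CPM, the UMIs of a gene scaled to a common total, after scaling with TMM factors, which equalize the bulk of genes between sums, and they are compared between cell types and not between genes. Since the deposited clusters had themselves been derived from these UMIs, each p-value also carries the effect of that clustering. Well barcodes are shared between plates by design, by at most 4 cells in dataset 1 and 12 in dataset 2.

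Dataset 1 held 70 cells of cluster 5-7, which are called enterocyte-like here. All 13 listed enterocyte markers had UMIs in this cluster and 12 of the 13 were highest there among the 15 clusters. On CPM of all UMIs without TMM scaling, their summed level was 59708 in tube1 and 54716 in tube2, against 491 and 635 in corpus mature pit cells. In parietal cells the same sum was 8117 and 6895 CPM, of which all but 303 and 362 CPM came from Apoa1. An earlier annotation deposited by the authors named 50 of the 70 cells duodenum and left 20 unnamed. These cells were shallower than the other epithelial types tested in dataset 1, with a median of 17439 UMIs against 63978 in corpus mature pit cells and 64127 in parietal cells. Mitochondrial genes took a median 13.4% of UMIs per cell there, 17.4% in parietal and 4.98% in corpus mature pit cells. The part of depth and mitochondrial share in the results was not tested as such. Alternatives left out the mitochondrial genes or kept only cells with at least 4000 genes. Shares of cells with a UMI were also given after thinning to 5000 UMIs.

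The promoters of Vil1 and Cdhr5 are printed as those of a filament bundler and a tip-link gene that were both far higher in the enterocyte-like than in the mature pit cells. Both are the 250 bases before the start listed by RefSeq, placed on GRCm39 by an exact match of the whole stretch. Vil1 lies at chr1:74448535-74475933 on the forward strand and its promoter window at chr1:74448293-74448542. Cdhr5 lies at chr7:140848996-140856704 on the reverse strand and its window at chr7:140856700-140856949. Both windows overlap the annotated gene by a few bases because the start listed by Gencode is slightly upstream. Sequences are written 5′ to 3′ on the strand of the gene, with matches to a searched motif in capitals.
Vil1 promoter: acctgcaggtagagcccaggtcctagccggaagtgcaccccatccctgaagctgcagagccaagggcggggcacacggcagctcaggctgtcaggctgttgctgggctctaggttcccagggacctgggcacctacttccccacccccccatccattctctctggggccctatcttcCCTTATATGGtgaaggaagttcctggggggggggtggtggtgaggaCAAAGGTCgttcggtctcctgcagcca
Cdhr5 promoter: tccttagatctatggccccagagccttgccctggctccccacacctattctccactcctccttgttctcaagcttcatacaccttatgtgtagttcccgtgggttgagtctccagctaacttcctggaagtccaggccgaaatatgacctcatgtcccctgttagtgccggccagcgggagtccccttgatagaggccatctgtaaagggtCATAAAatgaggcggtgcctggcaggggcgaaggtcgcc
In the Vil1 window the capitals mark a CArG box, the site of serum response factor, at 73 to 64 bases before the start, and the HNF4 motif CAAAGGTC at 27 to 20 bases before the start. In the Cdhr5 window they mark the CDX motif TTTATG, which reads on the reverse strand there, at 39 to 34 bases before the start. Of 32851 promoters of the same length, 1.47% held a CArG box, 1.01% held CAAAGGTC and 10.8% held TTTATG, on either strand. RefSeq listed a promoter for 8 of the 10 members. The motif AGATAA of GATA factors was also searched and occurred in 9.99% of all promoters. The motif TATAAA of the TATA box occurred in 12.4% of them. Neither was present in the Vil1 or Cdhr5 window. Besides these genes, Espn and Msn had a match, in both cases to TTTATG. The motifs were chosen after the sequences were read, and a match is a stretch of letters and not a measured binding site.

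The question of the main comparison was how mature pit and parietal cells differed in the RNA of these genes. RNA counts per cell do not show the protein or its place at the pit surface, the canaliculus or the brush border. In dataset 2, 8 of the 10 members had enough UMIs to be tested, and all 8 differed between mature pit and parietal cells, 4 being higher in pit cells and 4 higher in parietal cells. Over all 13894 genes tested, 56.3% differed at an adjusted p under 0.05, 25.7% higher and 30.6% lower in mature pit cells. Vil1, Pls1, Espn and Myo1a were higher in mature pit cells, whereas Ezr, Rdx, Eps8 and Cdhr5 were higher in parietal cells. The median difference over the 8 members was 0.64 on the log2 scale, against -0.08 over all genes, and Cdhr5 set to its bound given below leaves it as it is. Msn had 3 UMIs in parietal cells and 0 in mature pit cells, and Myo7b had 1 UMI in each.

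Of the membrane linkers, Ezr reached 1981 CPM in pool K and 1935 CPM in pool T of parietal cells, and 1107 and 1129 CPM in mature pit cells. The pools of each type lay close together and the types did not overlap. The log2 difference of pit against parietal was -0.81 ± 0.09 (SE; adjusted p = 2.3e-06, edgeR quasi-likelihood test with Benjamini-Hochberg adjustment, as for all adjusted p below), which is 1.75-fold higher in parietal cells. Rdx, the close relative of ezrin, was measured at 42.7 and 31.2 CPM in parietal cells and 2.27 and 2.5 CPM in mature pit cells, a log2 difference of -3.94 ± 0.43 (adjusted p = 2.4e-06).

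The actin bundlers ran the other way. Espn was at 85.4 and 95.2 CPM in mature pit cells and 4.87 and 4.15 CPM in parietal cells, a log2 difference of 4.32 ± 0.12 (adjusted p = 3.6e-12). Pls1 was at 253 and 268 CPM in mature pit cells and 62.3 and 59.9 CPM in parietal cells, a log2 difference of 2.09 ± 0.09 (adjusted p = 1.8e-10). For both genes every pit value was above every parietal value. Vil1 was at 14.5 and 36.4 CPM in mature pit cells and 0.237 and 1.02 CPM in parietal cells, a log2 difference of 5.45 ± 0.53 (adjusted p = 8.1e-07). Its pit pools differed from each other far more than those of Espn or Pls1. The parietal level of Vil1 rested on 4 and 14 UMIs, and the log2 difference was 4.58 without the pit sum of pool T, 4.68 without the parietal sum of pool K and 6.74 without that of pool T.

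Myo1a, the motor along the sides of the bundle, had the largest fold difference among the members that had UMIs in both types. Its level was 102 and 119 CPM in mature pit cells and 1.13 and 1.75 CPM in parietal cells, a log2 difference of 6.29 ± 0.27 (adjusted p = 1.9e-10). The tip protein Eps8 was higher in parietal cells, at 61.2 and 64 CPM against 13.2 and 21.7 CPM, a log2 difference of -1.81 ± 0.15 (adjusted p = 1.4e-07). The tip-link cadherin Cdhr5 gave 419 and 382 UMIs in parietal cells, or 24.9 and 27.8 CPM, and no UMI in mature pit cells of either pool. It was therefore at least 43.7-fold higher in parietal cells, taking 3 UMIs over both pit sums as the floor (adjusted p = 1.4e-07). Floors and intervals of this kind cover counting error only.

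The same 4 against 4 split was seen plate by plate, on CPM of all UMIs without TMM scaling. Across the 12 plates, Ezr ranged from 934 to 1287 (median 1111) in mature pit cells and from 1574 to 1807 (median 1766) in parietal cells. Espn ranged from 61.5 to 111 CPM (median 90.1) in mature pit cells and from 2.62 to 6.49 CPM (median 3.68) in parietal cells. Cdhr5 ranged from 16.8 to 30.2 CPM (median 23.1) in parietal cells and was at 0 on all 12 plates in mature pit cells. No plate of mature pit cells overlapped a plate of parietal cells for any of the 8 tested members, and the same held for 23.7% of all 13894 genes tested. Plates of a pool hold cells of the same mice and are not independent animals.

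The isthmus, where the progenitor cells divide, served as the reference for both mature types. In parietal cells, all 8 tested members differed from isthmus cells, 4 higher and 4 lower, with 71.8% of all genes called (35.2% higher and 36.7% lower). In mature pit cells, 4 of 8 differed, 3 higher and 1 lower, with 38.0% of all genes called (17.9% higher and 20.1% lower). These comparisons share the isthmus sums, and each is given by its own values.

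Parietal cells exceeded isthmus cells in Ezr, at 609 and 616 CPM in the isthmus, by 1.68 ± 0.09 on the log2 scale (adjusted p = 7.3e-10). Cdhr5 had 13 and 12 UMIs in isthmus cells, or 0.441 and 0.324 CPM, and was 6.09 ± 0.27 higher in parietal cells on the log2 scale (adjusted p = 4e-10). Rdx, at 10.5 and 8.59 CPM in the isthmus, was 1.96 ± 0.21 higher in parietal cells, and Eps8, at 23.7 and 23.4 CPM in the isthmus, was 1.41 ± 0.10 higher (adjusted p = 1.3e-06 and 1.6e-08). All 3 bundlers and the side-arm motor were lower in parietal than in isthmus cells. The log2 differences were -4.58 ± 0.47 for Vil1, -2.03 ± 0.09 for Pls1, -3.22 ± 0.11 for Espn and -3.88 ± 0.28 for Myo1a, with adjusted p = 8.6e-07, 8.3e-11, 7.2e-12 and 1.7e-08.

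In mature pit cells, Ezr, Espn and Myo1a were above isthmus cells. Myo1a, at 20 and 21.8 CPM in the isthmus, was 5.29-fold higher (SE 0.19 on the log2 scale; adjusted p = 3.9e-07). Espn, at 43.6 and 41.2 CPM in the isthmus, was 1.10 ± 0.09 higher (adjusted p = 6.3e-07) and Ezr 0.87 ± 0.09 higher (adjusted p = 3.7e-06). Rdx was -1.98 ± 0.51 lower (adjusted p = 0.007), a call that was lost without the mature pit sum of pool T (adjusted p = 0.0712). Vil1, at 12.8 and 15.9 CPM in the isthmus, differed by 0.87 ± 0.34, which did not pass (adjusted p = 0.061). With the pool as a block it passed, at 0.84 and adjusted p = 0.00412. It also passed with RLE factors (adjusted p = 0.0494), without the filter on low counts (0.00018) and with plates as units (0.000532), but not with DESeq2 (0.123). Without the pit sum of pool T the value was -0.02, and without that of pool K it was 1.32 (adjusted p = 0.00833). Eps8 differed by -0.40 ± 0.16 and did not pass (adjusted p = 0.063), but passed at -0.87 without the pit sum of pool T (adjusted p = 0.00411). It also passed without the filter on low counts (adjusted p = 0.0242), with cells of at least 4000 genes (0.0489) and with plates as units (0.0235). It did not pass with DESeq2 (0.138) or RLE factors (0.116). Plates of a pool share mice, so for both genes the fit with plates as units adds no animals and its p-value overstates the replication.

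Pls1 was at nearly the same TMM-scaled level in mature pit and isthmus cells, with a log2 difference of 0.06 ± 0.09 (adjusted p = 0.63). This depends on the scaling. On CPM of all UMIs, Pls1 ranged from 200.7 to 292 over the 12 plates in mature pit cells and from 296 to 339 in isthmus cells, without overlap. The TMM factors of the isthmus sums were 1.27 and 1.26, and those of the mature pit sums 1.02 and 0.966.

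From the isthmus to the surface, pre-pit cells are the intermediate stage. Between mature pit and pre-pit cells, 2 of 8 tested members differed, Espn and Myo1a, both higher in mature pit cells, with 10.4% of all genes called (6.52% higher and 3.84% lower in mature pit cells). Myo1a was at 40.7 and 53.5 CPM in pre-pit cells and 1.23 ± 0.20 higher on the log2 scale in mature pit cells (adjusted p = 0.0013). Espn was at 65.8 and 65.6 CPM in pre-pit cells and 0.46 ± 0.10 higher in mature pit cells (adjusted p = 0.0075). Espn did not pass without the mature pit sum of pool T (adjusted p = 0.159) or without the pre-pit sum of pool K (adjusted p = 0.0547).

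Chief and neck cells completed the corpus. The order of the 6 types was tested between neighbors, and 20 of 40 neighbor pairs over 8 members differed in dataset 2, against 21.2% of such pairs over all genes. Ezr fell from parietal to mature pit and pre-pit cells and then to isthmus, neck (385 and 398 CPM) and chief cells (176 and 193 CPM), each step passing the test except that from mature pit to pre-pit cells. That step was 0.18 on the log2 scale (adjusted p = 0.224). It passed with DESeq2 (adjusted p = 0.0327) and with plates as units (0.00492), though plates of a pool share mice. Under the other alternatives it did not pass. Myo1a fell in 4 tested steps from mature pit to pre-pit, isthmus, neck (5.67 and 9.64 CPM) and chief cells (0.559 and 2.7 CPM), with chief and parietal cells not differing beyond their spread. Pls1 was at 191 and 173 CPM in neck cells and lowest in chief cells, at 47.5 and 49.3 CPM, below parietal cells. Espn was lowest in parietal cells, below the 35.8 and 36.6 CPM of chief cells. Eps8 was highest in parietal cells, above chief cells (45.8 and 42 CPM) and neck cells (36.3 and 34.7 CPM), which did not differ beyond their spread. Neck cells were above isthmus cells, and the neighbors among isthmus, pre-pit and mature pit cells did not differ beyond their spread. In dataset 1, chief cells were above parietal cells in Eps8. Cluster 10 there, all 21 cells of which the earlier annotation named chief, followed only the enterocyte-like cluster, at 76.1 ± 13.7 CPM (SD, n = 2 pools). This order was not tested. Cdhr5 in dataset 2 was highest in parietal cells and came next in chief cells, at 6.71 and 11.2 CPM. It was at most at 0.542 CPM in the types below them.

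**Figure D1:**
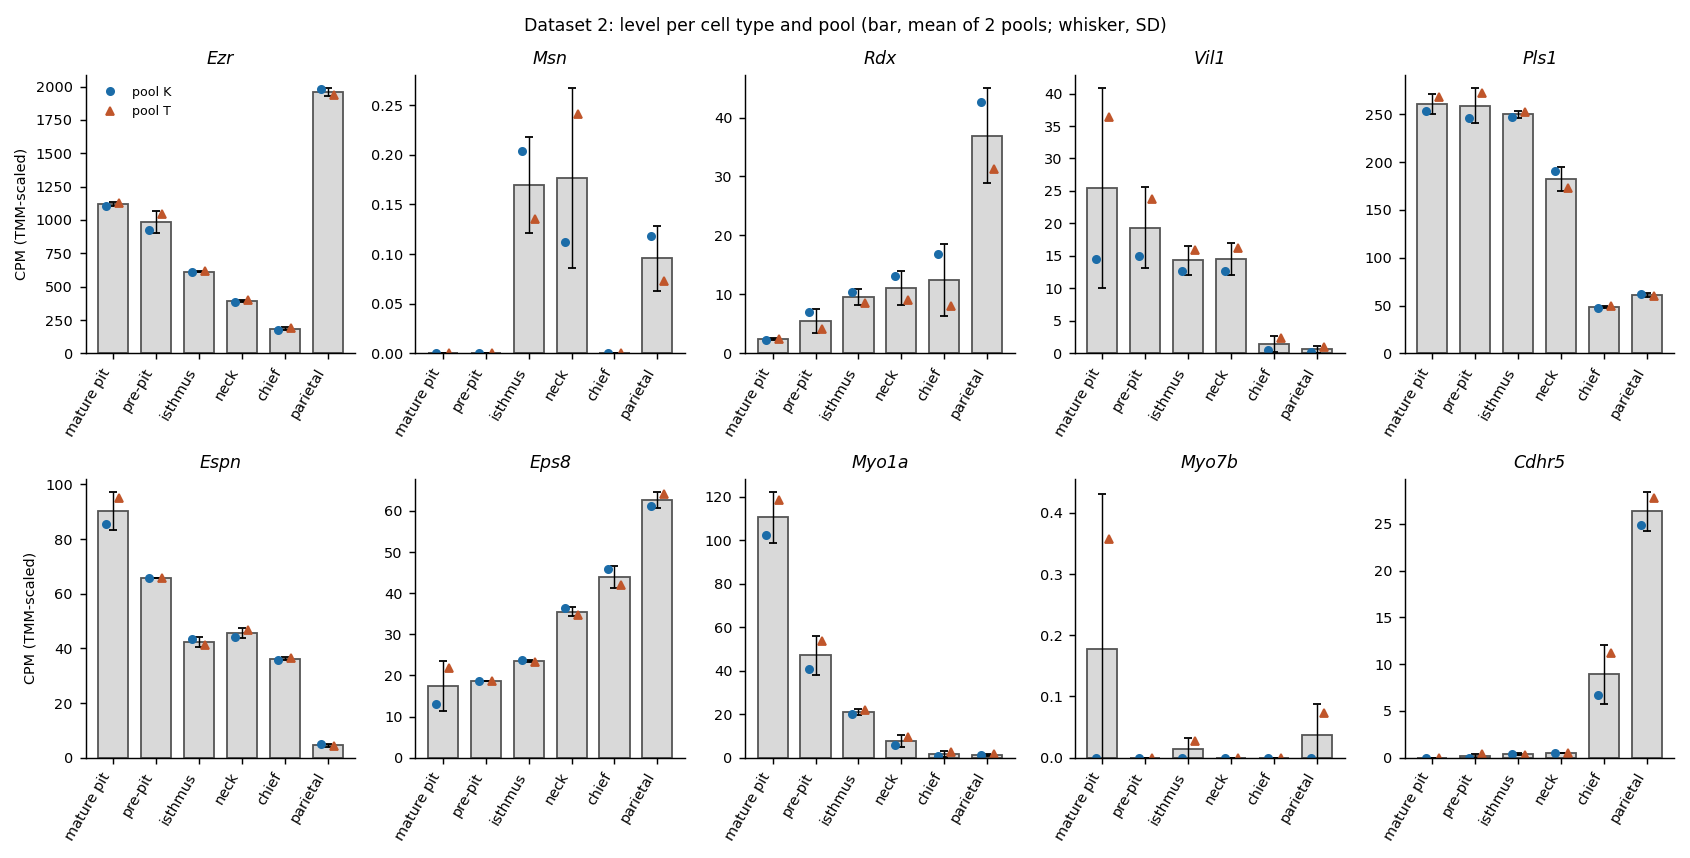
Levels of the 10 members in the 6 epithelial types of dataset 2, in TMM-scaled CPM on linear axes, with 1 panel per gene, a bar for the mean of 2 pools, a whisker for the SD and a point for each pool (circle K, triangle T). Ezr was highest in parietal and lowest in chief cells. Myo1a fell from mature pit to pre-pit, isthmus and neck cells and was lowest in chief and parietal cells. Msn and Myo7b were at or near 0 in every type.

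Dataset 1 allowed the gastric pit and parietal cells to be set against the enterocyte-like cells within the same pools. In the enterocyte-like cells 7 members were higher and Ezr was lower than in corpus mature pit cells, 8 of the 9 tested, with 43.7% of all 10653 genes called (23.4% higher and 20.3% lower). Against antrum mature pit cells the same 7 were higher and Ezr was lower, with 45.1% of all genes called (23.6% higher and 21.5% lower). Against parietal cells the 7 were again higher and Ezr and Rdx were lower, all 9 of the 9 tested, with 55.4% of all genes called (26.3% higher and 29.1% lower). The median difference over the tested members was 1.96 on the log2 scale against corpus pit, 2.63 against antrum pit and 6.36 against parietal cells, where the medians over all genes were 0, 0 and -0.13. The 3 comparisons share the enterocyte-like sums. Myo7b, counted among the 7, had 371 of its 392 UMIs of dataset 1 in these cells. It passed the filter on low counts through them, so its calls and its part in the counts and medians are no independent support. With the 50 cells named duodenum alone the same numbers of members were called. Msn had 2 UMIs in the enterocyte-like cells and none in the other 3 types, and was not tested.

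Cdhr5 and Myo7b of the tip-link complex set the enterocyte-like cells apart from the mature pit cells. Cdhr5 was at 1854 CPM in tube1 and 1633 CPM in tube2 of the enterocyte-like cells, 0 and 5.51 CPM in corpus mature pit cells, 0 in both pools of antrum mature pit cells and 20.8 and 21.1 CPM in parietal cells. It was 9.31 ± 0.38 higher on the log2 scale than in corpus pit cells (adjusted p = 3.3e-12), where it rested on 4 UMIs of tube2 (8.25 without the corpus pit sum of tube1 and 13.93 without that of tube2), and 6.36 ± 0.27 higher than in parietal cells (adjusted p = 1.8e-12). Against antrum pit cells it was at least 1527-fold higher. Myo7b was at 323 and 290.2 CPM in the enterocyte-like cells, with 1 UMI in corpus mature pit cells and none in antrum mature pit or parietal cells. The ratio to corpus pit cells was 456 (95% counting interval 81.3 to 18057), and it was at least 269.8-fold higher than in antrum pit and at least 323-fold higher than in parietal cells.

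Villin was graded over the 4 types. Vil1 was at 1681 and 1733 CPM in the enterocyte-like cells. In mature pit cells it was at 269.7 and 281 CPM in the antrum and 86.6 and 59.2 CPM in the corpus, and in parietal cells at 0 and 0.918 CPM. None of these types overlapped another. The enterocyte-like cells were 4.54 ± 0.20 above corpus pit and 2.63 ± 0.17 above antrum pit cells on the log2 scale (adjusted p = 3.3e-12 and 3.9e-10). Against parietal cells, which had 2 UMIs, the ratio was 2780.2 (95% counting interval 769 to 22972).

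Pls1, Espn and Myo1a were highest in the enterocyte-like cells and lowest in parietal cells, where Espn rested on 3 and 5 UMIs and Myo1a on 1 and 3. Pls1 was at 1174 and 1649.6 CPM in the enterocyte-like cells, 461 and 457 in antrum pit, 387 and 351 in corpus pit and 55.8 and 55.5 in parietal cells. Espn was at 565 and 417 CPM in the enterocyte-like cells, 61.3 and 74.2 in antrum pit, 139 and 136 in corpus pit and 2.84 and 2.3 in parietal cells. Myo1a was at 675 and 830.4 CPM, 255 and 207, 219.7 and 169, and 0.945 and 1.38 in the same types. Against corpus pit cells the log2 differences were 1.94 ± 0.16 for Pls1, 1.80 ± 0.16 for Espn and 1.96 ± 0.22 for Myo1a, and against antrum pit cells 1.63 ± 0.16, 2.85 ± 0.17 and 1.71 ± 0.20. All passed the test, with the largest adjusted p, 1.4e-06, for Myo1a against antrum pit cells. The enterocyte-like pools differed from each other in Pls1 and Espn, and in opposite directions.

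Eps8 was highest in the enterocyte-like cells as well, at 340.2 and 232 CPM, against 65.5 and 49.1 in antrum pit, 17.6 and 23.4 in corpus pit and 56.7 and 65.2 in parietal cells. The log2 differences were 2.24 ± 0.30, 3.75 ± 0.38 and 2.16 ± 0.29 in that order (adjusted p = 4.4e-06, 2e-07 and 3.7e-06). Ezr was lowest in the enterocyte-like cells of the 4 types, at 634 and 499.8 CPM in the enterocyte-like cells, 1258 and 1293 in antrum pit, 1430.2 and 1186 in corpus pit and 1762 and 1831 in parietal cells. Its log2 differences were -1.18 ± 0.16, -1.22 ± 0.16 and -1.68 ± 0.16 (adjusted p = 7.8e-06, 6.4e-06 and 6.8e-08). Rdx had 1 UMI in the enterocyte-like cells and 49.2 and 54.2 CPM in parietal cells, a ratio of 65.1 in favor of parietal cells (95% counting interval 11.5 to 2586).

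**Figure D2:**
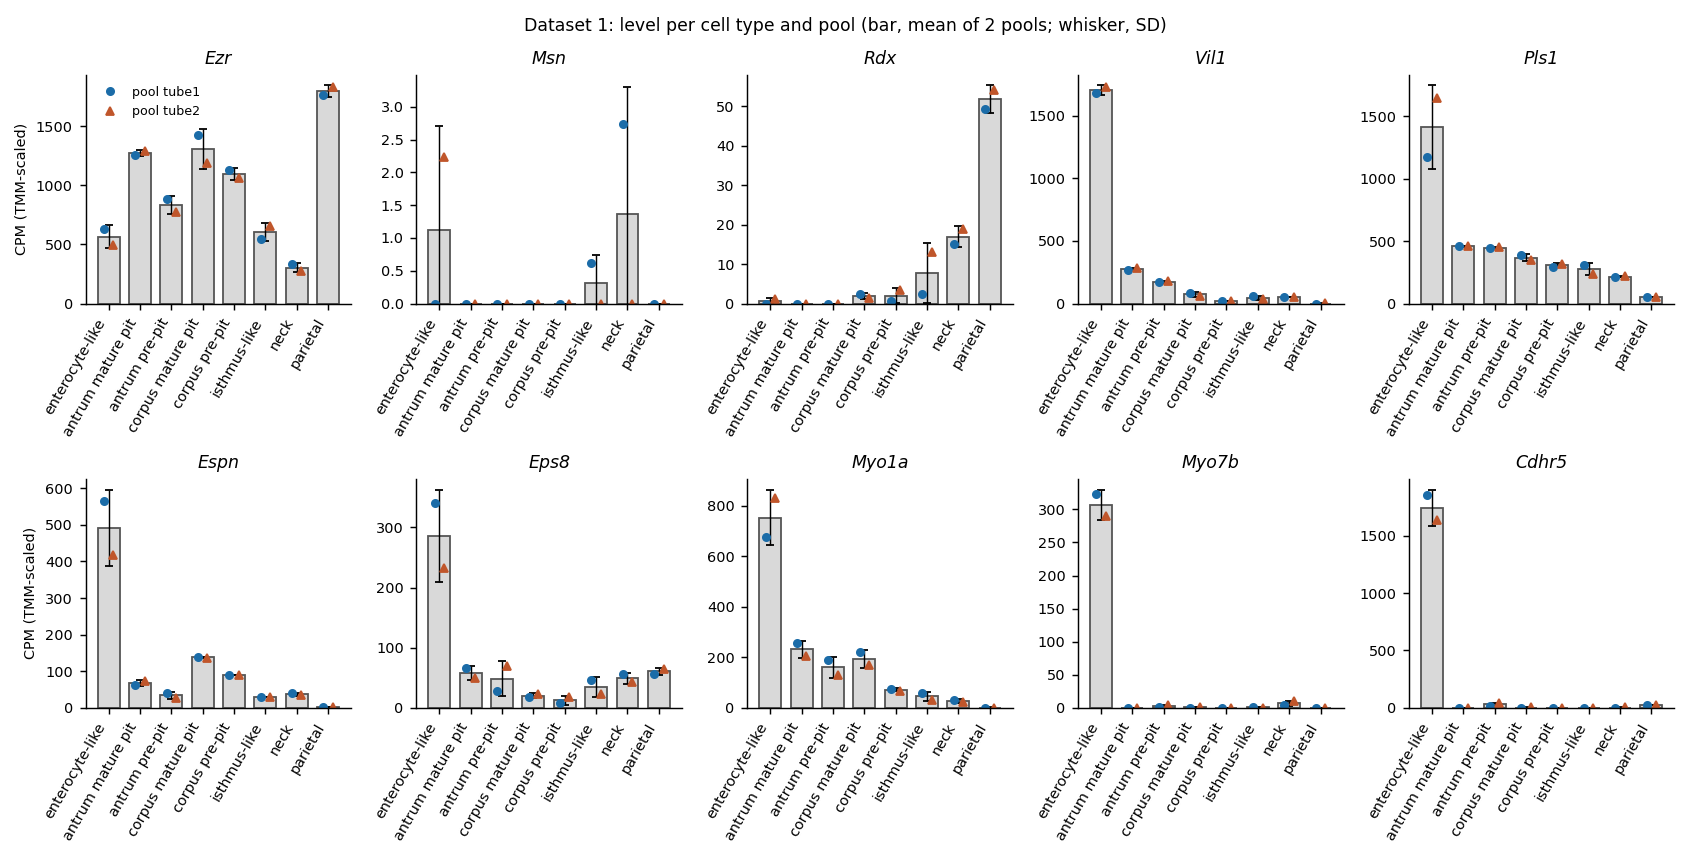
Levels of the 10 members in the 8 tested epithelial types of dataset 1, in TMM-scaled CPM on linear axes, with 1 panel per gene, a bar for the mean of 2 pools, a whisker for the SD and a point for each pool (circle tube1, triangle tube2). The chief cells of dataset 1 are not among them. Vil1, Pls1, Espn, Eps8, Myo1a, Myo7b and Cdhr5 were highest in the enterocyte-like cells, and Ezr and Rdx were highest in parietal cells.

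The parietal and pit cells of dataset 1 gave the comparison of dataset 2 again in separately prepared cells. Between corpus mature pit and parietal cells, 8 of 9 tested members differed, with 46.8% of all genes called (21.1% higher and 25.6% lower in pit cells). Vil1, Pls1, Espn and Myo1a were higher in pit cells and Ezr, Rdx, Eps8 and Cdhr5 higher in parietal cells. The log2 differences were 2.73 ± 0.18 for Pls1, 5.74 ± 0.30 for Espn, 7.18 ± 0.43 for Myo1a and -2.94 ± 0.65 for Cdhr5 (adjusted p = 6.1e-10, 1.9e-11, 1.4e-10 and 0.0011). With 2 and 3 UMIs in the lower type, the ratios were 119 for Vil1 (95% counting interval 32.2 to 995) and 26.7 for Rdx (8.97 to 131). Ezr differed by -0.46 ± 0.16 (adjusted p = 0.022). Its call was lost with DESeq2 (adjusted p = 0.0748), with RLE factors (0.0586) and without the pit sum of tube2 (0.197), the parietal sum of tube1 (0.0674) or the parietal sum of tube2 (0.118). Eps8, at -1.59 ± 0.42 (adjusted p = 0.0044), did not pass without the pit sum of tube1 (0.0588). The Cdhr5 difference rested on 4 UMIs of the pit sum of tube2, and was -1.91 without the pit sum of tube1 and -7.59 without that of tube2.

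**Figure D3:**
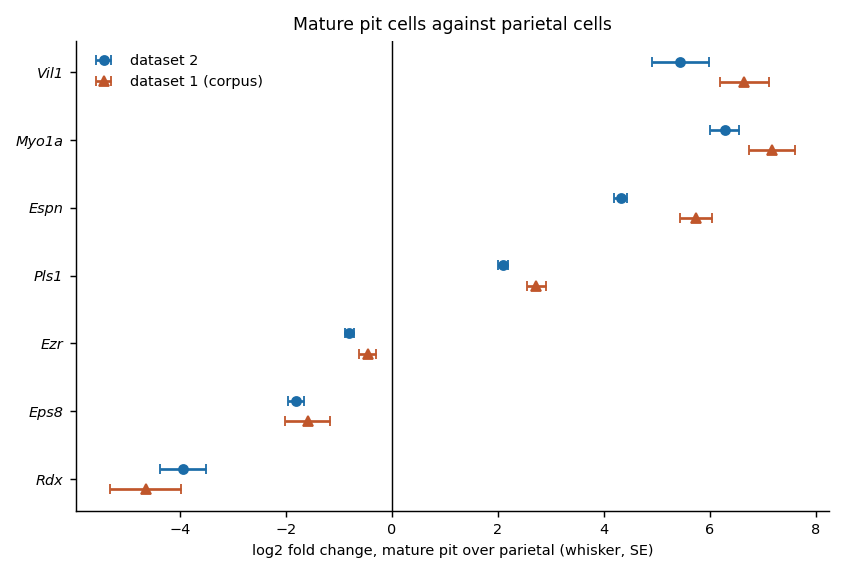
Log2 fold change of mature pit over parietal cells for the 7 members with UMIs in both types (x axis, log2 scale; whisker, SE), with circles for dataset 2 and triangles for the corpus cells of dataset 1. Vil1, Myo1a, Espn and Pls1 lie right of 0 and Ezr, Eps8 and Rdx left of 0 in both datasets.

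Whether the pit against parietal difference had the same size in both datasets was tested as an interaction. Of 9 tested members, Pls1 and Espn differed between datasets, with 5.60% of all genes called (3.61% larger and 1.99% smaller in dataset 1). The difference was larger in dataset 1 by 0.65 ± 0.16 for Pls1 (adjusted p = 0.026) and by 1.48 ± 0.36 for Espn (adjusted p = 0.035) on the log2 scale. DESeq2 called only Pls1 (Espn adjusted p = 0.0688). Neither gene passed without the dataset 1 pit sum of tube1, either dataset 1 parietal sum, the dataset 2 pit sum of pool K or the dataset 2 parietal sum of pool K, where adjusted p ran from 0.0563 to 0.102 for Pls1 and from 0.069 to 0.356 for Espn. Cdhr5, which differed by 7.19 with mature pit cells of dataset 2 at 0 (adjusted p = 0.056), passed in the first of these cases (adjusted p = 0.0272). The datasets differed in cell preparation, sorting dyes and primers, which cannot be told apart from the mice.

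Antrum and corpus pit cells were compared within dataset 1. The region is that of the authors' clusters, and the sample titles do not give it. Vil1 was 1.91 ± 0.20 higher in antrum than in corpus mature pit cells on the log2 scale (adjusted p = 2e-05), a 3.75-fold difference. Espn was lower in antrum mature pit cells by -1.04 ± 0.18 (adjusted p = 0.0022). These were 2 of the 9 tested members, with 3.28% of all genes called (2.05% higher and 1.23% lower in the antrum). The Espn call was lost without the antrum sum of tube1 (adjusted p = 0.0715). Eps8 differed by 1.51 ± 0.43 and did not pass (adjusted p = 0.067). It passed without the filter on low counts (3.04e-05) and with plates as units (0.00754), though plates of a pool share mice.

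Cdhr5 was found in a few cells of the antrum. Antrum pre-pit cells gave 15 and 21 UMIs, or 19.3 and 41.4 CPM, whereas antrum mature pit cells gave none in 49 cells, and the test of this pair passed (adjusted p = 0.00017). Nearly all of these UMIs lay in 1 cell of each pool. In tube1 a single cell of 18 held all 15 UMIs, and in tube2 a single cell of 14 held 20 of the 21, so the level describes these cells and not the type. The enterocyte marker Cdx1 had 2 and 6 UMIs in antrum pre-pit cells and none in antrum mature pit cells. The sum of the 13 enterocyte markers was lower in antrum pre-pit cells, at 691 and 866 against 1166 and 1279 CPM of all UMIs. Whether the cells with Cdhr5 were enterocytes or carried their RNA was not tested. In parietal cells of dataset 1, 52.7% of cells had a Cdhr5 UMI. In the order of the 8 types of dataset 1, 22 of 63 neighbor pairs over 9 members differed, against 9.70% of such pairs over all genes. Vil1 was ordered from the enterocyte-like to antrum mature pit, antrum pre-pit (169.7 and 179 CPM) and corpus mature pit cells in steps that each passed.

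Parietal cells of dataset 2 formed clusters 1 and 8, of 458 and 244 cells, in which mitochondrial genes took a median 22.8% and 12.6% of UMIs per cell. Between them, 2 of 8 tested members differed, both higher in cluster 1, with 27.2% of all genes called (14.9% higher and 12.3% lower in cluster 1). Rdx was at 68.4 and 50.9 CPM in cluster 1 and 26.8 and 23.5 CPM in cluster 8, a log2 difference of 1.22 ± 0.20 (adjusted p = 6.3e-05). Eps8 was at 87.5 and 84 CPM in cluster 1 and 56.7 and 71.1 CPM in cluster 8, a log2 difference of 0.40 ± 0.11 (adjusted p = 0.0093). The Eps8 call was lost without the pool K sum of cluster 1 (adjusted p = 0.0737) or of cluster 8 (0.243). Pls1 differed by -0.24 ± 0.09 and did not pass (adjusted p = 0.056), but passed with the pool as a block at -0.23 (adjusted p = 0.0393). Cdhr5, at 28.4 and 29.6 CPM in cluster 1 and 35.2 and 38.6 CPM in cluster 8, did not pass (adjusted p = 0.19). Cluster levels are scaled over the clusters and do not line up with the levels of whole types given above.

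Outside the major epithelial types the members fell into separate cell classes. Moesin and radixin were highest in endothelial-like clusters, with Msn at 712 ± 42.6 CPM (SD, n = 2 pools) in cluster 13 of dataset 1 and 825 ± 289 CPM in cluster 19 of dataset 2. Rdx was at 902 ± 52.8 CPM and 715 ± 92.5 CPM in the same clusters, where Vil1, Espn, Myo1a, Myo7b and Cdhr5 were all at 0. Msn came next in the leukocyte-like clusters, at 304 ± 22.0 CPM in dataset 1 and at 486 and 373 CPM in the pools of dataset 2. These clusters are small, and cluster 19 of dataset 2 held 9 cells. They held 145103 UMIs in cluster 13 of dataset 1 and 68689 UMIs in cluster 19 of dataset 2. Their zeros therefore set only a weak limit on the level of a gene.

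Espin was highest in the clusters that hold tuft cells, chemosensory cells with a tuft of long microvilli. In cluster 14 of dataset 1, Espn was at 897 ± 75.1 CPM and Vil1 at 464 ± 23.7 CPM. In dataset 2, cluster 15 led in Espn (486 ± 18.5 CPM), Vil1 (286 ± 54.6 CPM) and Cdhr5 (71.6 ± 10.3 CPM). This cluster carried the highest level of all 5 tuft and all 5 stromal markers, so its cells were divided by these markers. The 12 tuft-like cells of pool K and 11 of pool T had Espn at 812 and 763 CPM of all UMIs, Vil1 at 433 and 521 and Cdhr5 at 113 and 128, with 0 and 1 UMI of Msn. The 5 stromal-like cells, all of pool K, had Msn at 314 and Rdx at 183 CPM and no UMI of Vil1, Espn or Cdhr5, where 3 UMIs would be 78.5 CPM. Neither class was met by 1 cell of pool K and 3 of pool T, which had Espn at 327 and 333 CPM. The 4 tuft-like cells of each pool in cluster 14 of dataset 1 had Espn at 1462 and 2178 CPM and Vil1 at 844 and 1025 CPM. In that cluster, 1 cell of tube1 and 3 of tube2 met neither class. They had Msn at 1085 and 920 CPM, from 7 and 24 UMIs, and no UMI of Vil1, where 3 UMIs would be 465 and 115 CPM. With so few cells these values are descriptions.

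An endocrine-like cluster carried villin and espin with almost no Myo1a. This cluster 14 of dataset 2 had Vil1 at 106 CPM in both pools, Espn at 117 and 91.9 CPM and Rdx at 84.7 and 83.3 CPM, and 1 UMI of Myo1a over both pools. In that cluster Myo7b gave 13 UMIs in pool T and 0 in pool K. Parietal cluster 1 led all 20 clusters of dataset 2 in Ezr and Eps8, at 2458 ± 82.7 and 85.8 ± 2.49 CPM. Ezr had UMIs in both pools of every cluster of both datasets, and Rdx did so in dataset 2 only.

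**Figure D4:**
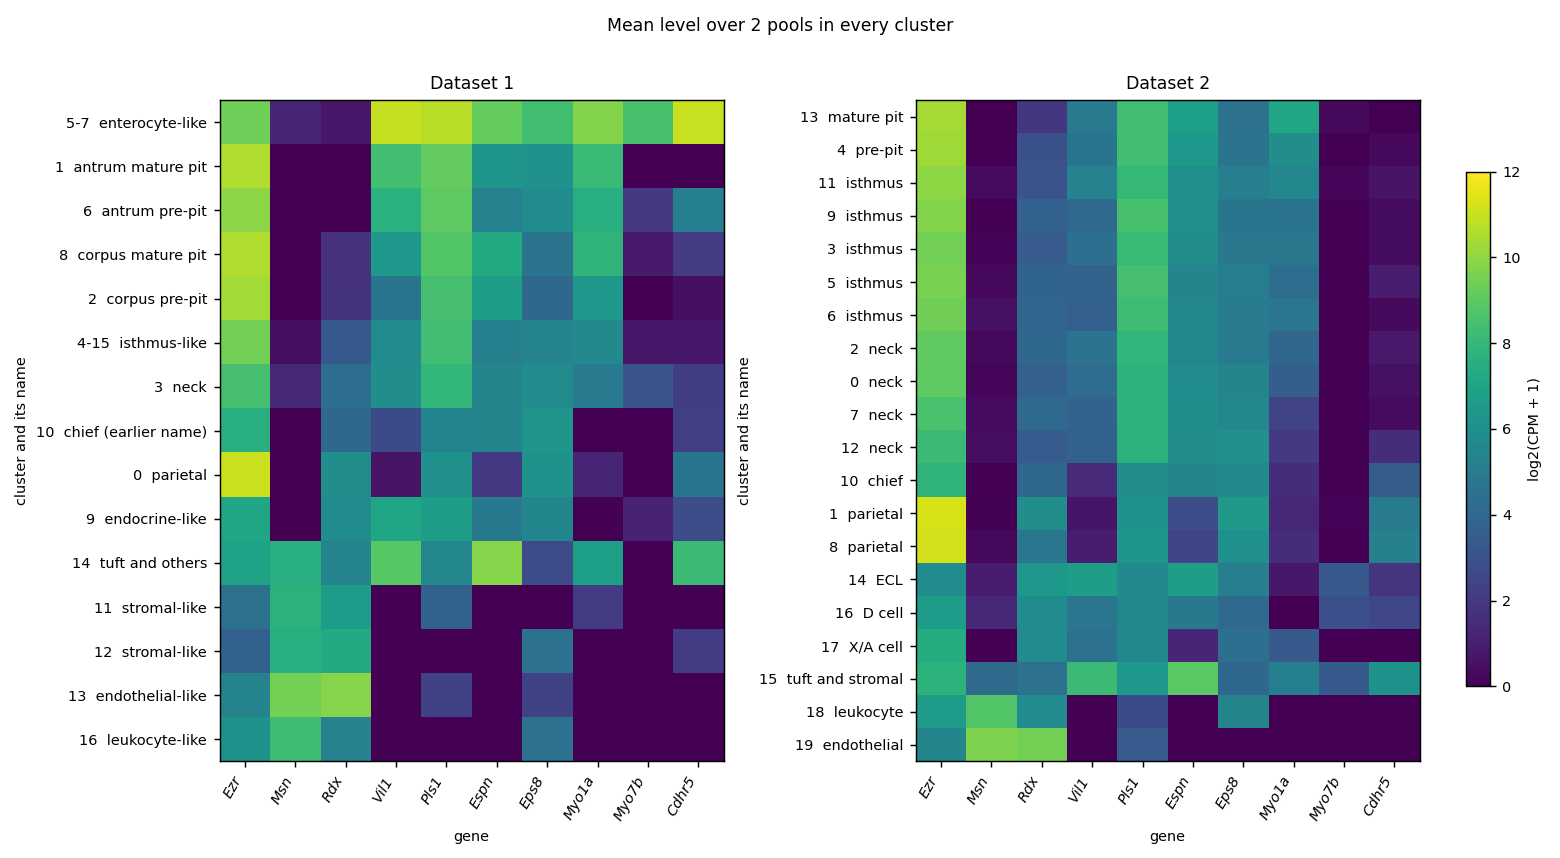
Heat maps of the mean level of each member over 2 pools in all 15 clusters of dataset 1 and all 20 clusters of dataset 2, colored by log2 of TMM-scaled CPM plus 1, with clusters as rows and genes as columns. The enterocyte-like cluster 5-7 was highest in Vil1, Pls1, Eps8, Myo1a, Myo7b and Cdhr5 in dataset 1, and the endothelial-like clusters stood out in Msn and Rdx.

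The share of cells with at least 1 UMI was computed after thinning every cell to 5000 UMIs, with the unthinned share beside it. Ezr was detected in 99.7% of parietal, 98.8% of mature pit and 45.5% of chief cells of dataset 2 after thinning, and in 100%, 100% and 94.5% unthinned. Cdhr5 was detected in 10.2% ± 0.892 (SD, n = 2 pools) of parietal cells, 49.5% unthinned, and in no cell of 121 mature pit cells, which allows a share of up to 2.48% of cells with a UMI and sets no limit on cells that express the gene. In neck cells, with a median depth of 22530 UMIs against 47647 in parietal cells, the share was 0.333%, and 1.37% unthinned. In dataset 1 Cdhr5 was detected in 98.2% of the enterocyte-like and 9.72% of parietal cells, and 99% and 52.7% unthinned. Vil1 was detected in 99.8% of the enterocyte-like and 0.177% of parietal cells, and in mature pit cells in 68% of those of the antrum and 23.7% of those of the corpus. The unthinned shares were 100%, 2.5%, 98.3% and 76.9% in that order. No cell fell below 5000 UMIs in these types. Free RNA in the wells is not separated from RNA of the cell.

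Partner genes of the members were read from lists of other apical genes. In the list of ezrin partners and regulators, 5 of 13 tested genes were higher and 5 lower in mature pit than in parietal cells of dataset 2. Over all 13894 genes tested in this comparison, 25.7% were higher and 30.6% lower in mature pit cells. The scaffold genes Slc9a3r1 and Slc9a3r2, which bind ezrin, were higher in parietal cells, at log2 differences of -0.72 ± 0.18 and -1.42 ± 0.13 (adjusted p = 0.004 and 4.2e-07). In the list of adhesion genes and myosin motors, 4 of 9 were higher and 3 lower. Calml4, a light chain of myosin 7B, was at 26.8 and 21.4 CPM in mature pit and 0.475 and 0.291 CPM in parietal cells.

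In the list of bundlers, tip and membrane genes, 10 of 17 were higher in mature pit cells and 7 higher in parietal cells. Avil, a villin relative, was at 87.7 and 159 CPM in mature pit cells and 1.25 and 1.38 CPM in parietal cells, and Eps8l3, an Eps8 relative, at 69.5 and 89.5 CPM against 1.36 and 1.09 CPM. The actin nucleator Cobl was at 212 and 194 CPM in parietal cells and 0.909 and 1.78 CPM in mature pit cells, and the plastin gene Pls3 at 172 and 161 CPM against 34.1 and 26 CPM. Relatives of the same protein family were thus found on either side of the comparison. Among 20 genes of canaliculus and tubulovesicle traffic, 8 were higher in mature pit cells, led by Vasp at 2.76 ± 0.16, and 9 higher in parietal cells, led by Clic6 at -4.82 ± 0.10 (adjusted p = 3.6e-09 and 1.4e-12). Clic6 reached 2919.7 and 3032 CPM in parietal cells. The counts of the 4 lists stand against 56.3% of all genes called in this comparison. The medians of the 4 lists were 0.17, 0.16, 0.90 and -0.10, against -0.08 over all genes.

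In the enterocyte-like cells the partners of Cdhr5 and Myo7b were high together with them. Cdhr2, the other tip-link cadherin, was at 2627 and 2052 CPM, and Ush1c, the scaffold of the complex, at 225 and 215 CPM, while both were at 0 in the 2 sums of corpus mature pit cells. Of 10 tested adhesion and motor genes, 7 were higher and 1 lower than in corpus mature pit cells. Genes at 0 in the pit sums could pass the filter on low counts through the enterocyte-like cells, so this count is no independent support. Over all 10653 genes tested in this comparison, 23.4% were higher and 20.3% lower. The list of bundlers, tip and membrane genes had 6 higher and 10 lower of 18. Avil was at 0 and 8.97 CPM against 269 and 245 CPM, and the villin-like gene Vill at 5.77 and 6.72 CPM against 289 and 284 CPM. Of the ezrin partners, 6 of 13 were higher and 3 lower, with Slc9a3r1 at 934 and 935 CPM against 171 and 142 CPM. Of 18 traffic genes, 2 were higher and 8 lower.

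Between antrum and corpus mature pit cells, Anks4b, another scaffold of the tip-link complex, was 1.90 ± 0.38 higher and Krt20 3.12 ± 0.36 higher in the antrum (adjusted p = 0.008 and 5.3e-05). The paper named Krt20 as an antrum pit cell marker from this same dataset, so its p-value is no independent support for the difference. No other gene of the 4 lists passed in this comparison, in which 3.28% of all genes were called.

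Likeness to other genes was read over the 40 cluster and pool sums of dataset 2, as Pearson correlation of log2 CPM among 9814 genes. The sums share pools, plates and sequencing depth, so these values are descriptions. Ezr was most like Ctse (r = 0.94), Tmem171 and Etfa, and Msn was most like Vim (r = 0.97). Vil1 was most like Kctd15 (r = 0.90), Espn most like Tgfa (r = 0.87), Myo1a most like Ano7 (r = 0.93) and Pls1 most like Pafah1b3 (r = 0.95). Rdx and Eps8 were most like Wdr37 (r = 0.85) and Ttc32 (r = 0.95). Among the members, Vil1 and Espn were the closest pair (r = 0.77), followed by Pls1 and Espn (r = 0.70) and Pls1 and Myo1a (r = 0.69), and the most negative pairs were Msn and Pls1 (r = -0.79), Rdx and Pls1 (r = -0.77) and Rdx and Myo1a (r = -0.74).

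Reads of 3 members could not be told apart from a protein-coding gene on the opposite strand if the counting ignored strand, which the sources used here do not give. These were Ezr with Sytl3, Vil1 with Usp37 and Espn with Tnfrsf25.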

How the data were processed

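Single cells were sorted into 384-well plates and sequenced with Quartz-Seq2. The authors deposited UMI counts per gene and cell, with their cluster assignments, after alignment with STAR, counting with Drop-seq tools and removal of cells with fewer than 2500 genes. The authors also deposited the percent of UMIs from mitochondrial genes per cell, computed from these counts. The submitters' processing notes name bcl2fastq 2.20.0.422, and the strand setting of the counting is not given in the sources used here.

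Counts were summed per cell type and pool, from the deposited clusters, and tested with edgeR 4.0.16 (quasi-likelihood, TMM factors, filterByExpr) in R 4.3.3, separately for each dataset. The fit held 8 epithelial types in dataset 1 and 6 in dataset 2. Cluster 10 of dataset 1, with 21 cells named chief, was not in the fit of types. The clusters with endocrine and tuft cells were left out as well. The SE is the log2 fold change divided by the root of F. P-values were adjusted with the Benjamini-Hochberg method over all genes of a fit, and adjusted p under 0.05 was called. With 2 pools per type, p-values measure the spread between pools. Sums of a pool share mice, so pools pair the types. The deviations of same-pool sums correlated with a median r of 0.132 in dataset 2 (0.0689 to 0.411 over 15 pairs) and 0.0266 in dataset 1 (-0.0359 to 0.0732 over 28 pairs). The code was tested on simulated data.

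Members and lists were chosen with earlier results of these data known. All 10 members are named. Of the other lists, up to 3 called genes per direction with the largest change were eligible to be named, where each pool of the higher type had at least 10 UMIs and the pools gave the same direction. Some eligible genes are not reported here. Likeness was computed for members and genes with a mean of at least 10 CPM, with a pseudocount of 1. Alternatives were DESeq2 1.42.0, RLE factors, no filter, a pool block, no mitochondrial genes, cells with at least 4000 genes, plates as units and leaving out each sum. Plates of a pool share mice, so p-values with plates as units overstate the replication. Analysis of the cells named duodenum alone, and of single sums left out of the cluster and dataset comparisons, was added after the data were seen. Intervals are exact 95% counting intervals. Promoters came from the RefSeq table of GRCm38.p6.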

Additional observations from a re-analysis of the deposited data

Results flagged for a closer look

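The difference between mature pit and parietal cells was larger in dataset 1 than in dataset 2 for Pls1, by 0.65 ± 0.16 on the log2 scale, and for Espn, by 1.48 ± 0.36, in the test of the difference itself (edgeR, adjusted p = 0.026 and 0.035). Each lost its call in 5 of the 8 fits that left out a single sum. The parietal levels of Espn in dataset 1 rested on 3 and 5 UMIs.

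Among the plates of dataset 2, the parietal cells of 1 plate of pool K had Espn at 6.49 CPM, far from the next highest plate at 4.196 CPM. It was 1 of 35 groups of plates tested for a distant sample, where chance flags about 1 in 20.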

How the results depend on the processing

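Of 1000 member values under the alternatives, 949 kept their direction and their side of the threshold, 23 lost their call, 15 gained one and 13 changed sign, none of these 13 being called in either setting. Another 10 values could not be given, because the UMIs of a group were at 0. With the pool as a block, Vil1 between mature pit and isthmus cells (0.84, adjusted p = 0.00412) and Pls1 between clusters 1 and 8 (-0.23, adjusted p = 0.0393) were called, and no other call changed.

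The number of members called stayed within 1.5 times in 107 of 118 counts. Leaving out single sums gave 1 to 2 calls between mature pit and pre-pit cells, between antrum and corpus pit cells and between clusters 1 and 8, and 0 to 2 between the datasets, where DESeq2 gave 1.

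Sign changes were as follows. For mature pit against isthmus cells, Pls1 was -0.0244 without the filter and ran from -0.0188 to 0.11 without single sums, and Vil1 ran from -0.0188 to 1.32, the lowest without the pit sum of pool T for both. For mature pit against pre-pit cells, Pls1 was -0.0077 without the filter, -0.0104 with plates as units and ran from -0.0738 to 0.0751 without single sums. There Eps8 ran from -0.51 to 0.23 and Vil1 from -0.44 to 0.90. Ezr between antrum and corpus pit cells ran from -0.17 to 0.10. Between clusters 1 and 8, Vil1 ran from -1.60 to 1.32 and Myo1a from -0.76 to 0.37. Eps8 between the datasets ran from -0.0464 to 0.68. The cause was not tested.

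Counts of all genes called moved by over 1.5 times in some settings. They went from 5277 to 3399 (pit against isthmus, without pit pool T), from 1439 to 2590 (pit against pre-pit, plates as units, with the share higher in mature pit cells going from 63.0% to 52.7%), to 465 (without pit pool T) and to 645 (without pre-pit pool K). They went from 4805 to 3198 (enterocyte-like against antrum pit, without enterocyte-like tube2), from 349 to 214 with DESeq2, to 554 without the filter and to 133 to 185 without single sums (antrum against corpus pit). Between clusters 1 and 8 they went from 3510 to 2118 and 1965 without the pool K sum of either, and between the datasets from 661 to 206 to 440 without single sums. UMI depth limits Msn and Myo7b in the stomach epithelium, Vil1 in parietal cells and Cdhr5 in pit cells, where levels rested on a few UMIs.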
